A study of Mus musculus with 3 samples.

Results

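The regions described here are 740 strong stretches of open chromatin of mesenchymal stem cells whose peak summit in the day 7 non-immobilized library had no counterpart within 500 bp in either of the other 2 libraries of the study. They were chosen by a rule on summit positions. The 30000 best-scoring peak summits of the non-immobilized list on chromosomes 1 to 19 were taken, those with no summit of the day 7 immobilized list and no summit of the day 0 list within 500 bp were kept, and each was widened by 250 bp on both sides and merged. The rule kept 741 of 30000 summits (2.47%), which gave 740 regions of the 78994 that all 3 lists form together. Strong means here only a place among the 30000 best of the list's 47912 summits. The 740 regions had a median score of 9.82, below the median of 10.1 over the whole list. The label of the set, regions found only in the non-immobilized library, held for part of it: 343 of the 740 regions (46.4%, exact 95% binomial interval 42.7 to 50) had a summit of another library over 500 and up to 1000 bp away.

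The study examined heterotopic ossification, the formation of bone in soft tissue after injury, in mouse mesenchymal stem cells. One library came from cells at day 7 after injury without immobilization, 1 from cells at day 7 after injury with immobilization and 1 from cells before injury at day 0. The labels used here give no strain, age, sex, injury method, number of animals or sorting scheme, and each group is 1 library. No difference below therefore has a replicate check or a p-value, and intervals cover counting error only.

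The assay, ATAC-seq, reads where a transposase can reach the DNA, which it does best where no nucleosome covers it. Open stretches are found at gene starts (promoters), where the transcription machinery assembles, and at distant enhancers, which differ more between cell types than promoters do. A summit is the single base at which the signal of a called peak is highest.

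Depth differed between libraries. An estimated 90136518 aligned read pairs without duplicates remained in the non-immobilized, 75269683 in the immobilized and 63640194 in the day 0 library, and the lists held 47912, 67404 and 51722 summits in that order. The day 7 immobilized list, which regions had to be absent from, was the longest. Each summit carries the authors' own score, a −log10 value whose kind, p or q, has no statement in the labels. It was used here only to rank summits within a list. Of the 30000 best non-immobilized summits, 83.2% had an immobilized summit within 100 bp. A share of 4.22% had none within 500 bp, and 13.5% had no day 0 summit within 500 bp. Over the whole non-immobilized list, 8.77% of summits had neither.

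The 3 gene-start windows below, each with a summit of the set, illustrate what it holds. They are shown from 250 bases before to 50 after the annotated start, 5′ to 3′ on the gene's strand, from RefSeq (GRCm38.p6, the assembly of mm10), with capitals for up to 21 bases centred on the non-immobilized summit. Rnf31 and Elf2 are among the 10 best-scoring regions, and Sele was picked after its values were seen, because it is the 1 region of the set that lies in such a window and has no summit of either other list within 2 kb.
Rnf31 (chr14:55591492-55591791, plus strand): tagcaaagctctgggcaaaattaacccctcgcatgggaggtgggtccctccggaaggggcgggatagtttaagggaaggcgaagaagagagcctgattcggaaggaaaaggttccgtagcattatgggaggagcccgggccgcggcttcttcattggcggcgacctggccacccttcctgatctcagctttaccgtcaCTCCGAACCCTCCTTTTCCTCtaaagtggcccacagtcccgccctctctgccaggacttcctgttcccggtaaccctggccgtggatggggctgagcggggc
Elf2 (chr3:51340595-51340894, minus strand): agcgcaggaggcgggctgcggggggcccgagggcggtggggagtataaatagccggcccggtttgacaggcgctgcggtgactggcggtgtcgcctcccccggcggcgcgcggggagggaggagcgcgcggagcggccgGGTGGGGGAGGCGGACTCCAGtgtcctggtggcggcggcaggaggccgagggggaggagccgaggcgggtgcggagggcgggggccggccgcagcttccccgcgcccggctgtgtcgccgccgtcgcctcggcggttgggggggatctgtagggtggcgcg
Sele (chr1:164047984-164048283, plus strand): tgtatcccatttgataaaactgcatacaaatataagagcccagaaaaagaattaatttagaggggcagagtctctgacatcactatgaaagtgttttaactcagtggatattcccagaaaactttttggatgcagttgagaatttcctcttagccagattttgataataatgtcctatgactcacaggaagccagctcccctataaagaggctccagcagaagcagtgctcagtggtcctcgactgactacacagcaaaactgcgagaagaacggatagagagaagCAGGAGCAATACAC

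Rnf31 encodes the catalytic subunit of the complex that builds linear ubiquitin chains. Its non-immobilized summit lay at -42 bp from the start, where minus is upstream, and had a score of 63.0. The nearest immobilized summit lay at -615 bp and the nearest day 0 summit at -605 bp, so both other libraries had a summit at nearly 1 place, and the non-immobilized list had no summit there. Elf2, an Ets family transcription factor, had its non-immobilized summit at -101 bp from the start with a score of 48.6. Both other lists had theirs at -746 bp. Sele encodes E-selectin, the adhesion molecule with which activated endothelium slows leukocytes. Its non-immobilized summit lay at +46 bp from the start with a score of 7.95, rank 28852 of the list. The nearest immobilized summit was 39434 bp and the nearest day 0 summit 53453 bp away. Rnf31 and Elf2 thus had summits of all 3 libraries within 1 kb, and Sele had 1 summit of 1 library.

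The regions fell into 3 distance classes. The 343 flanking regions had a summit of another list at over 500 and up to 1000 bp, 103 intermediate ones had their nearest at up to 2000 bp (13.9%, 11.5 to 16.6), and 294 isolated regions had none within 2 kb (39.7%, 36.2 to 43.4). These classes were drawn after the distances were seen. Around the rule's limit, 62 strong summits had their nearest summit of another list in the 50 bp beyond it and 80 in the 50 bp within it. The limit on score fell between 7.608 at rank 30000 and 7.605 at the next rank. The median distance to the nearest immobilized summit was 1166 bp over all regions, 687 bp in flanking and 7486 bp in isolated regions. For the nearest day 0 summit the medians were 1516, 728 and 10927 bp. Of the isolated regions, 110 had no summit of either other list within 10 kb.

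**Figure D1:**
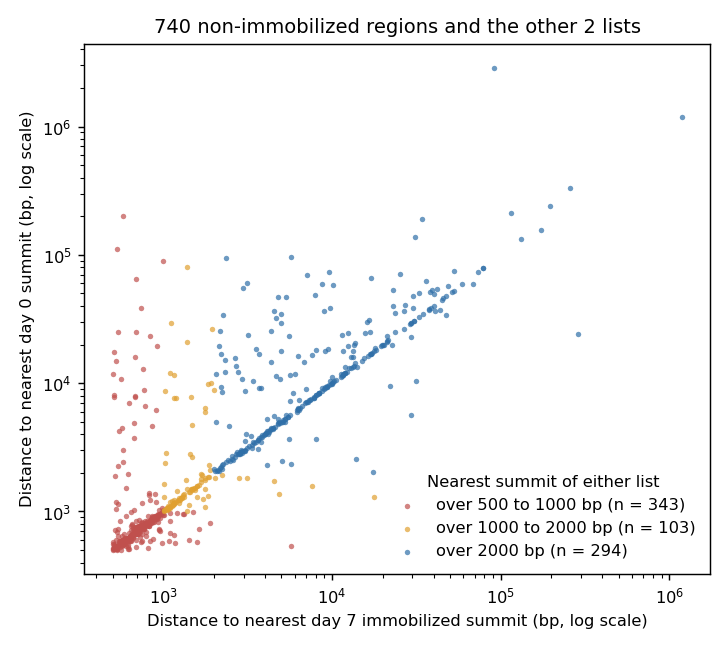
Distance from each of the 740 regions to the nearest day 7 immobilized summit (x axis) and to the nearest day 0 summit (y axis), in bp on log scales, with 1 point per region and colours for the distance classes. Many points lie on the diagonal, where both other lists had a summit at the same distance, and 110 isolated regions lie beyond 10 kb on both axes.

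The other lists placed their summits together. Of the 280 regions with a summit of both other lists within 1000 bp, 218 had these 2 summits within 50 bp of each other (77.9%, 72.5 to 82.6), and in 274 they lay on the same side of the non-immobilized summit. In 209 of the 280 the non-immobilized list had another summit within 250 bp of the immobilized one (74.6%, 69.1 to 79.6). Those 209 are additional summits beside a shared place, with a median score of 11. The other 71 had no summit of their own at the shared place, like Rnf31 and Elf2, and had a median score of 22.1 and a highest score of 72.0.

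The best-scoring regions were all of the flanking kind. The 10 best had scores of 47.5 to 72.0, an immobilized summit 546 to 1420 bp away and a day 0 summit 544 to 783 bp away. These neighbours stood among the best 1.37% to 9.16% of the immobilized list and the best 1.35% to 9.17% of the day 0 list. In 9 of the 10, the non-immobilized list had no summit within 250 bp of the immobilized one, the exception being Stap2, which encodes a signalling adaptor. The highest score, 72.0, belonged to a region 80 bp from an end of Sap130, which encodes a subunit of the Sin3 histone deacetylase complex. Next after Rnf31 came Rap2b, a small GTPase (54.6), Ntan1, an N-terminal amidase (54.0), the AP-1 factor gene Fosb (52.8), Stmn1, which encodes the microtubule protein stathmin (52.8), the transcription factor gene Sp3 (50.1) and the kinase gene Map3k6 (48.8). Of the 10, 8 lay within 1 kb of either end of the nearest protein-coding gene. Fosb, at 16476 bp, did not, nor did Map3k6, at 2698 bp from an end by the gene table but at -141 bp from a start in the table of promoter windows.

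No isolated region ranked above 15315 of the non-immobilized list, and the 115 regions ranked above that place were 102 flanking and 13 intermediate ones. The highest score of an isolated region was 17, near Ccdc91, against 34.5 for an intermediate and 72.0 for a flanking region. Of the summits ranked 1 to 5000, 11 (0.220%) entered the set, and of those ranked 25001 to 30000, 357 (7.14%). In that last stretch 124 were flanking, 51 intermediate and 182 isolated. The scores follow from the rule, which ranked summits by them, and are a description. The neighbours of isolated regions were also weaker in their own lists: their median place was 48.9% of the immobilized and 52.2% of the day 0 list, where 0% is best, against 16.0% and 19.3% for flanking regions.

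**Figure D2:**
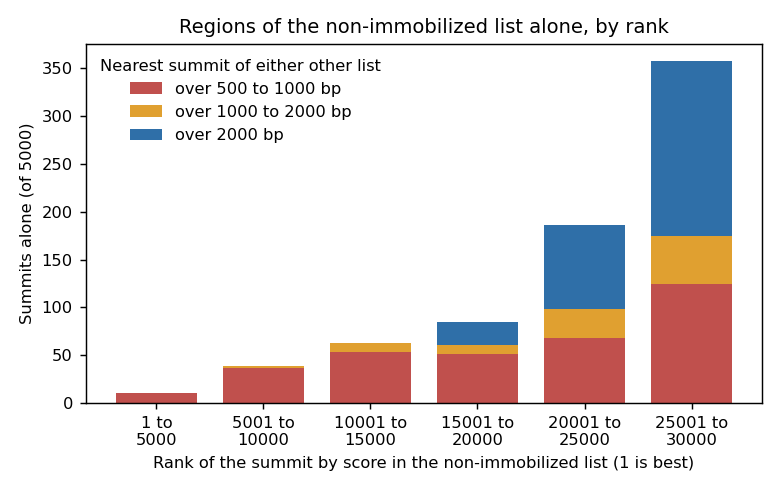
Number of summits of the non-immobilized list alone (y axis, of 5000 in each bar) by their rank in that list (x axis, 1 is best), with colours for the distance to the nearest summit of either other list. The first bar holds 11 summits, all flanking, and the last 357, of which 182 are isolated.

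Fewer than 1 in 2 flanking regions were near a gene start: 150 of the 332 off chromosome 18 (45.2%) lay within 1 kb of one. Among the 280 regions with both other summits within 1000 bp, 147 lay within 1500 bp of an annotated start. The distances between summits are those the rule used, and a rule that keeps summits over 500 bp from other summits moves the kept ones off starts where the others sit, so the positions in the next sentences are a description. In these 147 regions the non-immobilized summits lay a median of 613 bp from the start, 89 of them downstream, and 31 (21.1%) were within 250 bp of it. The nearest immobilized summits lay a median of 103 bp from the same starts, with 96 (65.3%) within 250 bp, and the nearest day 0 summits 102 bp, with 95 (64.6%). In 106 of the 147 (72.1%, 64.1 to 79.2) the non-immobilized summit was farther from the start than the immobilized one. At Rnf31 the non-immobilized summit was nearer to the start, and likewise at Elf2. Nup153, a nuclear pore protein gene, had the opposite order, with the non-immobilized summit at +589 bp and both others at -151 bp. Taf5, which encodes a subunit of the general transcription factor TFIID, had them at +744 bp (non-immobilized), -25 bp (immobilized) and -24 bp (day 0). These last 2 genes were picked after their values were seen.

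**Figure D3:**
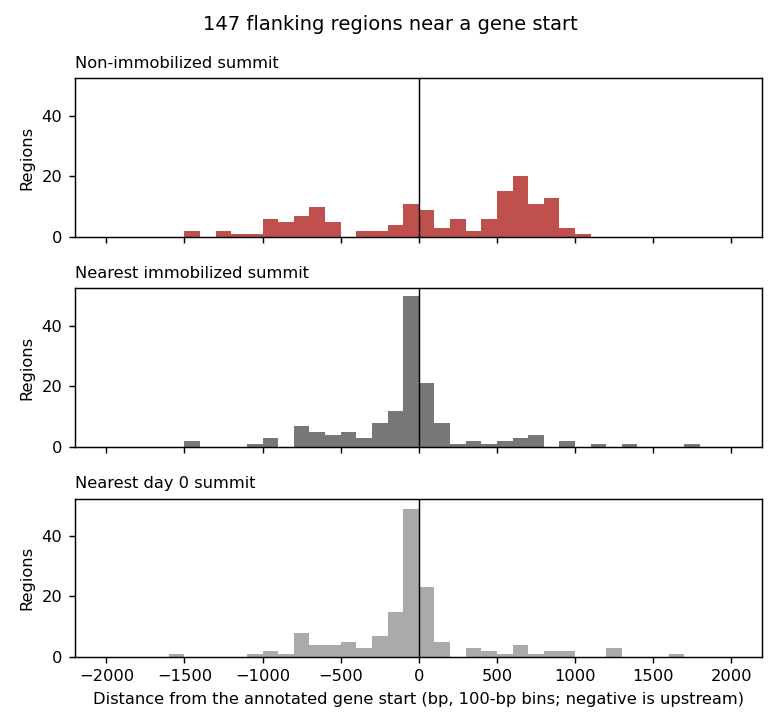
Position of the non-immobilized summit (top), the nearest immobilized summit (middle) and the nearest day 0 summit (bottom) relative to the annotated gene start, in bp and 100-bp bins, with the number of regions on the y axis, for 147 flanking regions. The non-immobilized summits form a group downstream and a group upstream of the start, with 31 within 250 bp of it, against 96 immobilized and 95 day 0 summits, as a rule that needs over 500 bp between them favours.

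The same rule was run from the other 2 lists. It gave 1853 regions of the immobilized list alone (6.19% of its 30000 best summits) and 1240 of the day 0 list alone (4.14%). Flanking regions made up 46.4% of the non-immobilized set, 10.6% (9.26 to 12.1) of the immobilized set and 23.4% (21.1 to 25.8) of the day 0 set, and the intervals did not overlap. Isolated regions numbered 294, 1482 and 791 in that order, and made up 80.0% (78.1 to 81.8) of the immobilized and 63.8% (61.0 to 66.5) of the day 0 set. The lists also differed in length: the non-immobilized list is the shortest, and its regions had to be absent from the longest. With each list reduced to its 47912 best summits the flanking share was 29.1% (26.8 to 31.4) in the non-immobilized, 10.6% (9.24 to 12.0) in the immobilized and 18.2% (16.5 to 20) in the day 0 set. In the other sets, selected the same way, the own summit was farther from the start in 55.1% (40.2 to 69.3) of 49 such regions of the immobilized and 64.7% (53.6 to 74.8) of 85 of the day 0 set, and these intervals overlap with that of the non-immobilized set.

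The rule did not use position relative to genes, but it kept only summits over 500 bp from those of the other lists, which often lie near gene starts. The shares below, above all those by class, thus depend on that limit and are a description. With limits of 250 and 1000 bp the share of regions within 1 kb of a gene end was 29.4% and 5.04%. Of the 740 regions, 167 lay within 1 kb of a gene end, counting both ends of protein-coding genes (22.6%, 19.6 to 25.8), against 36.6% (36.1 to 37.2) of the 28937 other strong non-immobilized regions, those shared with at least 1 other list. Strong summits lie at gene ends more often the better they rank, so ranks were compared in strata. At ranks 1 to 5000 the share was 81.8% (48.2 to 97.7) of 11 regions alone and 83.1% (82.0 to 84.1) of shared ones, and in the next 5000 ranks 74.4% (57.9 to 87.0) and 59.4% (58.0 to 60.7), with overlapping intervals in both. At ranks from 10001 to 15000 the share was 50% (37.0 to 63.0) of 62 regions alone and 30% (28.7 to 31.3) of shared ones, and in the next 5000 ranks it was 34.1% (24.2 to 45.2) and 17.6% (16.6 to 18.7), and in these 2 strata the intervals did not overlap. In the 5000 ranks after those it was 14.5% (9.79 to 20.4) and 13.3% (12.3 to 14.3). In the last 5000 ranks it was 11.8% (8.61 to 15.6) and 12.3% (11.3 to 13.3), and the intervals overlap in both. Over all ranks beyond 15000 it was 15.6% (12.9 to 18.7) and 14.5% (13.9 to 15.1). By class, 42.9% (37.6 to 48.3) of flanking, 13.6% (7.63 to 21.8) of intermediate and 2.04% (0.753 to 4.39) of isolated regions were within 1 kb. The 6 isolated regions near a gene end were at Slc35c2, Gm8108, Chd2, A530016L24Rik, Slc35f4 and Mgst2.

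Isolated regions were mostly distal. Their median distance to a gene end was 24829 bp, against 1396 bp for flanking regions, and 95 of 294 (32.3%, 27.0 to 38.0) lay over 50 kb from any gene end. All isolated regions ranked beyond 15000, and of shared regions at those ranks 22.4% (21.7 to 23.1) lay that far, against 15.3% (14.9 to 15.7) of shared regions at all ranks. Inside a gene lay 450 of the 740 regions (60.8%, 57.2 to 64.3), against 55.4% (54.8 to 55.9) of shared ones. By class, 221 flanking (64.4%, 59.1 to 69.5), 73 intermediate (70.9%, 61.1 to 79.4) and 156 isolated regions (53.1%, 47.2 to 58.9) did. At ranks over 15000 the shares were 61.3% (57.4 to 65.1) of the set and 55.1% (54.3 to 55.9) of shared regions. Isolated regions of the immobilized set lay over 50 kb from a gene end in 29.8% (27.4 to 32.2) and of the day 0 set in 38.4% (35.0 to 41.9). The non-immobilized share lies between these values and its interval overlaps with both. The most remote region, chr6:20037662-20038162, lay 1158323 bp from the nearest gene end and over 1 Mb from any summit of either other list. Another, at Gm8108 (chr14:4110366-4110866), had its nearest neighbour in the non-immobilized list 1850790 bp, its nearest immobilized summit 91882 bp and its nearest day 0 summit 2853127 bp away. Whether reads place uniquely at such sites was not tested.

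**Figure D4:**
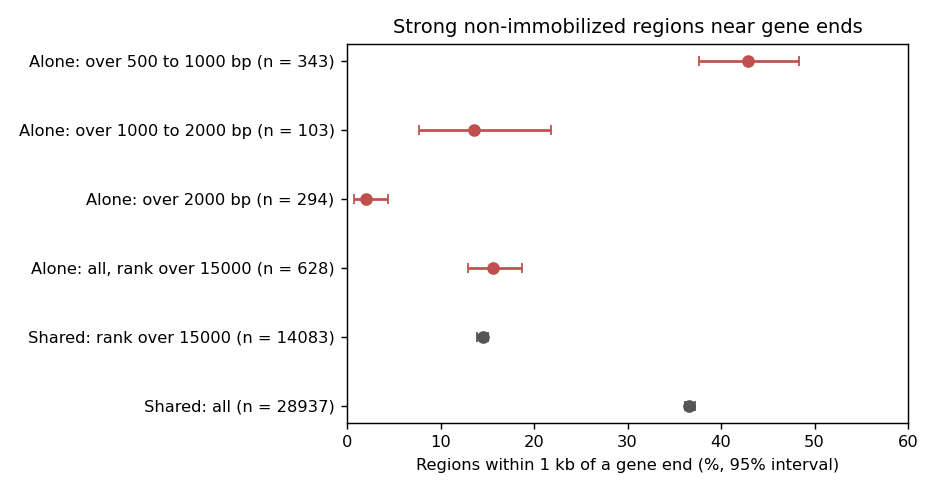
Share of strong non-immobilized regions within 1 kb of a gene end (x axis, percent, with exact 95% binomial intervals). Red points are regions of the non-immobilized list alone by class and for ranks over 15000, grey points are regions shared with another list, and the red classes run from 42.9% down to 2.04%.

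The regions were spread thinly over genes and chromosomes. Within 50 kb of a gene end lay 584 of them, at 556 genes, of which 529 had 1 region, 26 had 2 and 1 had 3. The share of strong summits that entered the set ranged from 1.73% (1.15 to 2.49) on chromosome 10 to 3.16% (2.33 to 4.18) on chromosome 3. The gene with 3 by this count was Spsb1, which encodes a negative regulator of TGF-beta receptor signalling. Its regions had scores of 8.78, 7.92 and 7.75. The first was flanking, with the nearest immobilized summit at 644 bp, and the other 2 were isolated, with the nearest at 4328 and 2124 bp. It had 7 shared strong regions and none in the immobilized or the day 0 set.

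Among genes with 2 regions, the pairs were of unlike kinds. Elf2, the chromatin reader gene Phf12, the prostaglandin E synthase gene Ptges, the transcription cofactor gene Irf2bp2, the Argonaute gene Ago2 and the glycosyltransferase gene A4galt had 2 flanking regions each. At Plekho2 1 was flanking and 1 intermediate, and at Skil, which encodes the Smad corepressor SnoN, likewise. Chn1, Bahcc1 and Kif26a had 1 flanking and 1 isolated region each. Ablim1, an actin-binding protein gene, Ankrd11, a chromatin regulator gene, and the carboxypeptidase gene Prcp had 2 isolated regions each. Ablim1's had scores of 14.9, with an immobilized summit at 6430 bp, and 7.82, with one at 5873 bp. These counts leave out regions over 50 kb from a gene end, which long genes hold. Counted by the gene they lie inside, whatever the distance, 3 genes had 3 or more: Arhgap26 had 5, with scores up to 9.67, the phosphodiesterase gene Pde4d 3, up to 14.8, and Ankrd11 3, up to 11.2. These 3 genes were picked after their values were seen.

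Regions near endothelial genes took a larger share of the set than of the shared strong regions, and the intervals did not overlap. Endothelial cells line blood vessels, and their identity rests on Ets, Sox and Gata factors that act through distal enhancers. The 2 endothelial lists together hold 85 genes, 83 of them on the autosomes. Of the 740 regions, 16 were assigned to 15 of these genes (2.16%, 1.24 to 3.49), against 0.781% (0.683 to 0.889) of shared strong regions. At ranks over 15000 the shares were 2.55% (1.46 to 4.1) and 1.07% (0.902 to 1.25). Ranks still differed there, with a median of 25694 in the set and 22275 in shared regions. The endothelial share was not counted in narrower strata of rank. In the set of the immobilized list alone 12 of 1853 regions (0.648%, 0.335 to 1.13) were near these genes, 6 of them at Ets2. In that of the day 0 list alone 9 of 1240 regions were (0.726%, 0.332 to 1.37), an interval that overlaps with the non-immobilized one. The sets were cut by rank and their lowest scores differed, at 7.61 (non-immobilized), 11.8 (immobilized) and 9.10 (day 0). Weaker regions of the immobilized and day 0 lists were thus left out. The endothelial shares of these lists were not counted at other cutoffs or at equal list lengths. The gene lists were chosen with earlier results on these libraries known, in which endothelial genes already stood out, so the larger share is not independent support. The share was 1.08% when genes had to lie within 10 kb, and with the 20000 best summits 1 region (0.508%) was left. The share of shared regions was not counted at these settings, so these values have no reference like the 0.781% above.

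The endothelial regions were weak ones. Their scores ran from 7.63 to 13.2 with a median of 9.20, and the best ranked 19191. Of the 16, 9 were isolated, 3 intermediate and 4 flanking, and 9 lay inside the gene they were assigned to. Distances to the other lists are those the rule used, so the values that follow are a description. A day 0 summit within 5 kb was lacking at 12 of 16 (75%, 47.6 to 92.7), against 34.3% of all 740 regions. The 740 hold a larger part of flanking regions than the 16 do. Such a summit was present for 93.3% of flanking but 26.5% of isolated regions, and an immobilized one for 99.7% and 36.7%. An immobilized summit within 5 kb was lacking at 5 (31.2%, 11 to 58.7), against 25.5% of all regions. The nearest summit of the day 0 list was farther away than that of the immobilized list at 13 of the 16 (81.2%, 54.4 to 96.0), against 58.0% of all regions.

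Surface, junction and signalling genes had 11 regions at 10 of 55 autosomal genes (1.49%, 0.744 to 2.64). The share of shared strong regions near them was 0.487% (0.410 to 0.574), and these intervals did not overlap. Transcription factor genes had 5 at 5 of 28 (0.676%, 0.220 to 1.57). That interval overlaps with the one of shared strong regions (0.294%, 0.235 to 0.363), and the immobilized set had 0.540%. Cdh5 encodes VE-cadherin, the adhesion protein of endothelial junctions. It had 2 regions inside the gene, chr8:104103292-104103792 with a score of 9.41 and chr8:104116517-104117017 with 8.07. Their nearest immobilized summits lay at 1941 and 4983 bp and their nearest day 0 summits at 26486 and 29686 bp. Both lay nearer to an immobilized than to a day 0 summit, and 5 other strong non-immobilized regions at the gene were shared. Pecam1, which encodes the junction protein PECAM-1, had 1 region 36 bp inside an end of the gene (10.7), with an immobilized summit at 1455 bp and a day 0 summit at 7821 bp. Esam, another junction gene, had a flanking region (10.9) with summits of the other lists at 562 and 501 bp. Podxl (8.61), the sphingosine 1-phosphate receptor gene S1pr1 (8.99), the sialomucin gene Emcn (7.63), the receptor gene Calcrl (9.82) and the adaptor gene She (9.82) had 1 isolated region each, besides Sele. The region at Podxl lay 49825 bp from an end of the gene, just within the 50 kb limit of assignment, and that at S1pr1 22930 bp. Those at Calcrl and She lay inside the gene, 20380 and 4859 bp from an end. At Emcn the nearest immobilized summit was 8705 bp and the nearest day 0 summit 59112 bp away. Vwf, which encodes von Willebrand factor, had 1 flanking region (8.52).

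Endothelial transcription factors had 5 regions. Erg, an Ets factor that maintains endothelial identity, had 1 with a score of 8.50, an immobilized summit at 511 bp, just past the rule's limit, and a day 0 summit at 8094 bp. That immobilized summit stood at 99.2% of its list, near the weakest. Sox17, a factor of arterial endothelium, had 1 region inside the gene (7.79), with the nearest immobilized summit at 1384 bp and the nearest day 0 summit at 79815 bp. The flow-responsive factor gene Klf2 had 1 flanking region (11), 15820 bp from an end of the gene. Gata2, a factor of endothelium and mast cells, had 1 isolated region (10.5) with both other lists at 4289 bp, and Ets2 had 1 (13.2). The regions at Gata2 and Ets2 lay 41662 and 47898 bp from an end of the gene, within the 50 kb limit of assignment. Kdr and Tek, which encode receptors for VEGF and angiopoietin, and Sox18 had none, but had 4, 4 and 2 strong regions shared with another list.

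Counts of strong summits at markers of endothelial cells also differed between the libraries. Of the 10 endothelial markers set for the check of cell types, 10 had at least 1 of the 30000 best summits in the non-immobilized library (37 summits), 7 in the immobilized one (20 summits; none at Sox17, Sox18 and Robo4) and 6 at day 0 (15 summits; none at Tie1, Sox17, Sox18 and Robo4). The 30000 best are a smaller part of the longer lists, which held 47912, 67404 and 51722 summits in that order. Summits below that place were not counted, so a marker without a strong summit can have a weaker one. The part of endothelial cells in the 16 regions was not tested, and more endothelial cells in a library and more open chromatin per cell cannot be told apart in bulk samples. Of 9 mesenchymal markers, 7 had a strong summit in each library, with 23, 20 and 30 summits in the non-immobilized, immobilized and day 0 libraries and none at Ly6a and Lum. None of the 740 regions was assigned to one of these 9 genes. Of 6 leukocyte markers, 3 had a strong summit in each library (6, 4 and 5 summits). The pericyte and smooth muscle markers had 11, 15 and 20 summits, keratinocyte markers 3, 11 and 3, skeletal muscle markers 7, 7 and 9, mast cell markers 3, 1 and 0, and Schwann cell markers 1, 2 and 1. None of these markers had a region of the set, and 5 regions were at endothelial markers.

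**Figure D5:**
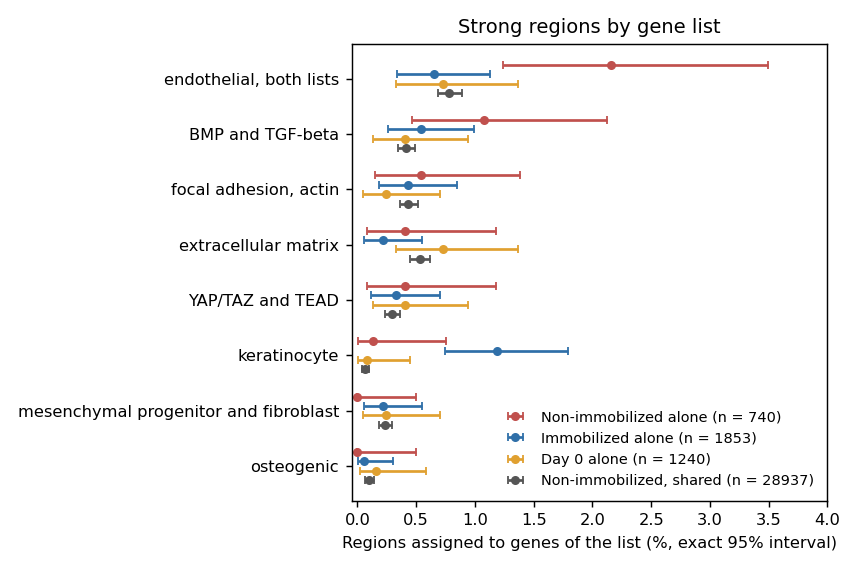
Share of regions assigned to genes of 8 lists (x axis, percent, with exact 95% binomial intervals) for regions of the non-immobilized list alone, the immobilized list alone, the day 0 list alone, and strong non-immobilized regions shared with another list. The endothelial share of the non-immobilized set is 2.16%, and the keratinocyte share of the immobilized set is 1.19%.

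Genes of BMP and TGF-beta signalling, which drives cartilage and bone formation, had 8 regions at 5 of the list's 39 genes (1.08%, 0.468 to 2.12), against 0.411% (0.341 to 0.492) of shared strong regions with overlapping intervals. At ranks over 15000 it was 7 of 628 regions (1.11%, with a lower bound of 0.449) and 0.348% (0.258 to 0.460) of shared ones, and the intervals overlap there too. Besides the 3 regions at Spsb1 there were 2 at Skil, and 1 each at the ligand gene Tgfb3, the co-receptor gene Tgfbr3 and the signal transducer gene Smad3. The Tgfb3 region (30.8) was flanking, with summits of both other lists at 528 and 527 bp. The 1 at Tgfbr3 (9.08) was flanking too. The 1 at Smad3 (7.84) was isolated, with the nearest immobilized summit at 2236 bp. In total 3 of the 8 were isolated. Lrrc32, which encodes the TGF-beta docking receptor GARP, had none, and 5 shared strong regions.

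Lineage lists held few regions. Osteogenic, chondrogenic, mesenchymal progenitor, limb position, myeloid, megakaryocyte and erythroid, and housekeeping genes had 0 of 740 regions each, which allows a share of up to 0.497% by the exact interval, above the 0.100% of shared strong regions near osteogenic and the 0.232% near mesenchymal progenitor genes. An absence of this size was thus not detectable with 740 regions. Runx2, the master factor of osteoblasts, Sox9, that of cartilage, Scx, a tendon factor, and Pdgfra and Prrx1, markers of limb mesenchyme, had none, and 1, 2, 3, 1 and 3 shared strong regions. Adipogenic genes had 2 regions (0.270%, against 0.221% of shared regions), 1 at Srebf1 (19.5, flanking, inside the neighbouring gene Rai1) and 1 isolated at Ebf1 (10.7), and Pparg had none. Tenogenic genes had 1, at Egr2 (12.0; 0.135%, against 0.124%). Keratinocyte genes had 1, a flanking region at Esrp1 (7.82; 0.135%, against 0.0622% of shared regions), compared with 22 of 1853 (1.19%, 0.746 to 1.79) in the immobilized set. Skeletal muscle genes had 1, a flanking region at Des (10.9; 0.135%, against 0.138%), and pericyte genes 2 (0.270%, against 0.162%), the same one at Des and the one at Ebf1, while Pax7, Rgs5, Krt14 and Ptprc had none.

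The shares of mechanical and matrix genes had intervals that overlap with those of shared regions. Focal adhesion and actin genes had 4 regions (0.541%, 0.147 to 1.38, against 0.432%), at Cald1 (11.3), Mrtfb (9.57), Zyx (8.11) and Itga9 (8.09). Those at Cald1, an actin-binding protein gene, and Itga9, an integrin gene, were isolated. Extracellular matrix genes had 3 (0.405%, 0.0837 to 1.18, against 0.529%), at the perlecan gene Hspg2 (10.7), the fibrillin gene Fbn1 (10.3) and the elastin gene Eln (7.91). Genes of YAP/TAZ and TEAD, the nuclear effectors of mechanical signals, had 3 (0.405%, 0.0837 to 1.18, against 0.290%), none isolated: Mob1b (16.5), Tead1 (14.5) and Lats2 (7.64). A stronger flanking region inside Lats2 (14.1) was assigned to Gm52140, whose end was nearest. The list counts also leave out regions inside a gene but over 50 kb from an end, among them 1 each at Fbn1 (12.6), Itga9 (9.83) and Ebf1 (9.29). Yap1 and the collagen receptor gene Ddr2 had none, and 2 shared strong regions each. AP-1 and immediate early genes had 3 (0.405%, 0.0837 to 1.18, against 0.287%), at Fosb, Bach2 (16.1) and Egr2, none isolated. Wnt genes had 4 (0.541%, 0.147 to 1.38, against 0.245%), at Wnt5a (12.0), Dkk2 (10.1), Fzd7 (7.96) and, isolated, Lgr6 (7.92). Notch genes had 2 (0.270%, against 0.235%), at Dll4 (9.27) and, isolated, Maml3 (7.97). Inflammatory genes had 1 (0.135%, against 0.349%), at Icam1 (10.5). Angiogenic factor and hypoxia genes had 2 (0.270%, against 0.256%), at Angptl4 (10.7) and the vessel receptor gene Ephb4 (9.47). Cell cycle genes had 1 (0.135%, against 0.235%), at E2f2 (19.3). Lymphoid genes (Ebf1, against 0.0449%), mast cell genes (Gata2, against 0.0415%) and Schwann cell genes (Egr2, against 0.100%) had 1 each, or 0.135%. For each list with a region other than the endothelial ones, the interval of the set overlaps with that of shared regions over all ranks. In all, 51 regions were assigned to a gene of the 27 lists and 689 were not.

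Few regions lay in a gene-start window of the kind printed above. These windows are known for 16456 of 20661 autosomal protein-coding genes (79.6%) and for none on chromosome 18. Of the 716 regions off that chromosome, 34 had their summit in one, 26 of them flanking, 7 intermediate and 1 isolated. Short motifs were looked for in these windows on both strands, as letters only. GGGCGG, the Sp motif, was in 21 of 34 (61.8%, 43.6 to 77.8), against 74.5% of 6748 windows with a shared strong summit and 47.0% of all 20084. GGAAGT, an Ets motif, was in 8 (23.5%, 10.7 to 41.2), against 28.2% and 25%. TGANTCA, the AP-1 motif, was in 2 (5.88%, 0.720 to 19.7), against 4.59% and 7.06%, and the Sele window holds it. For the Gata motif (AGATAA) the number was 4 (11.8%, 3.30 to 27.5), against 4.48% and 9.57%. The Tead motif (GGAATG) was in 14.7%, against 10.8% and 13.4%, the Runx motif (TGTGGT) in 11.8%, against 11.4% and 14.8%, and the Sox motif (ATTGTT) in 2.94%, against 4.53% and 8.78%. One E-box (CAGCTG) was in 11.8%, against 14.9% and 15.6%, and another (CATCTG) in 8.82%, against 10% and 14.6%. The forkhead motif (TGTTTAC), the Cre motif (TGACGTCA), the palindromic Nfi motif and the NF-kB motif (added after the data were seen) were in 0 of the 34, which allows up to 10.3%, against at most 3.90% of windows with a shared summit and 3.04% of all. For each of the 13 motifs the interval of the 34 windows holds both other shares. The sequences of the other 706 regions were not analysed here.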

How the data were processed

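Per the labels' protocols, cells of each group went into 1 Omni-ATAC library. Tools that the submitters' processing notes list include Trim Galore and cutadapt for trimming, Bowtie2 (version 2.3.4.1), Picard, SAMtools (1.2), bedtools (2.28.0) and MACS2 (2.1.2), with mm10 as genome; edgeR (3.26.5) and FastQC are listed too. How reads were shifted and filtered, and the peak cutoff, is not stated there. The deposited lists, 1 per library, hold 1 bp summits and a score, taken as −log10 of a p or q value. Deposited run statistics give read counts, duplication as a fraction and alignment as a percent; pairs without duplicates are trimmed pairs × alignment × the share not duplicated, an upper estimate.

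Regions went to the protein-coding gene whose end was nearest, up to 50 kb away (RefSeq, GRCm38.p6), counting positions from 1. Starts and strands came from RefSeq promoter windows; overlapping opposite-strand windows were complementary in 511 of 511 cases. The regions and gene lists were chosen with earlier results of these data known. Named genes were those of the 10 best-scoring regions, the 15 with the most regions, up to 4 per list and a fixed set; others were named after their values were seen. With 1 library per group no test was run. Shares have exact (Clopper-Pearson) 95% intervals. Region building and gene distances were tested on simulated data. Computation used matplotlib 3.10.9, scipy 1.17.1, pandas 2.3.3 and numpy 2.4.6 under Python 3.11.15.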

Additional observations from a re-analysis of the deposited data

How the results depend on the processing

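The number of regions depended on every limit of the rule except the widening (736 with 500 bp). It was 1413 and 397 with summits counted as shared within 250 and 1000 bp, 197 with the 20000 best summits and 2168 with the 40000 best, 1493 with all lists at the length of the shortest, and 294 with isolated regions only. The share within 1 kb of a gene end was 29.4%, 5.04%, 49.7%, 14.6%, 14.8% and 2.04% under those 6 settings in the same order, 15.6% at ranks over 15000, and stayed inside its interval with gene starts in place of ends (23.2%). The share inside a gene, 60.8% (57.2 to 64.3), was 53.1% for isolated regions and stayed inside its interval under the other settings. The endothelial share was 0.508% with 20000 summits, where 1 region was left, and 1.08% with genes within 10 kb, and lay between 1.35% and 3.06% under the other settings. With all lists at the length of the shortest, flanking regions fell to 29.1% of the non-immobilized and 18.2% of the day 0 set, and isolated ones made up 58.5% and 71.0%. The distance class, equal list lengths for the 3 sets, and gene starts were chosen after seeing the data. No paired analysis was possible because each group is 1 library. Whether depth decided which weak summits a list holds was not tested; the deepest library has the shortest list.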
